A study of Macaca mulatta with 8 samples.

Results

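SLC17A6 nuclei are here the excitatory nuclei of macaque brain that carried at least 2 RNA molecules of SLC17A6, the gene of the vesicular glutamate transporter VGLUT2. A nucleus was counted if it had at least 3000 unique molecular identifiers (UMIs, each standing for 1 captured RNA molecule), at least 2 UMIs of SLC17A6, none of GAD1 or GAD2, none of PROX1 and fewer than 3 of FOXP2. This rule found 223 nuclei among 59749, of which 36139 had at least 3000 UMIs, so SLC17A6 nuclei made up 0.617% of the nuclei deep enough to be judged (exact 95% interval 0.539% to 0.703%, counting error only). The values that chose them are the counts of SLC17A6, GAD1, GAD2, PROX1 and FOXP2, and those genes are described below without being treated as results.

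Glutamatergic neurons load glutamate into synaptic vesicles with a vesicular glutamate transporter. In rodents VGLUT1, encoded by SLC17A7, predominates in neurons of the cerebral cortex and hippocampus, and VGLUT2 predominates in the thalamus, brainstem and hypothalamus, while some cortical, subicular and amygdalar neurons carry VGLUT2 RNA as well. VGLUT1 and VGLUT2 both move glutamate at the expense of the vesicle's proton gradient, and synapses that use one or the other often differ in release properties. GAD1 and GAD2 make GABA and mark inhibitory neurons, PROX1 marks dentate granule neurons, and FOXP2 is a transcription factor found in particular groups of projection neurons.

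The nuclei came from frozen brain tissue of male Macaca mulatta (rhesus macaques) and their RNA was counted in droplets from its 3' ends. The sevoflurane group was 1 animal exposed to the inhaled anaesthetic sevoflurane (about 2.5 to 3%); each exposure lasted 4 h, beginning near postnatal day 7 and repeated at what the labels give as 14 and 28 days, which may be ages or intervals. The control group was a pool of 2 animals, and the material of each group was divided into 4 samples, so samples of a group are portions of 1 preparation and not separate animals. The sample characteristics name the hippocampus, whereas the growth protocol names the amygdala, and the region is not settled by these sources.

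All samples stand in 1 count matrix, in which a suffix from 1 to 8 on the barcode gives the library. No source used here pairs a suffix with a sample, so sevoflurane and control could not be compared, the matrix counts as 1 sample, and no p-value is given. Totals ran between 35806547 and 47007082 UMIs per library. The median nucleus held 3189 to 3426 UMIs in libraries 1 to 4 and 5730 to 5831 UMIs in libraries 5 to 8, and no source pairs either set with a group. Of the barcode sequences, 429 occurred in at least 2 libraries. This touched 2 SLC17A6 nuclei, neither of which shared its sequence with another SLC17A6 nucleus. Intervals cover counting error only, since neither nuclei nor libraries are replicates of an animal, and a higher level means a larger share of a nucleus's RNA.

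SLC17A6 nuclei were found in every library. Their number was 14 at the lowest, 26 at the median and 44 at the highest. Library 3 had the fewest (0.264% of nuclei with at least 3000 UMIs, exact 95% interval 0.144% to 0.442%) and library 5 the most (1.04%, 0.758% to 1.40%), and those intervals did not overlap. Set against the excitatory nuclei only, that is SLC17A6 nuclei plus the SLC17A7-only nuclei defined below, the share was 4.40% to 7.55% per library, and the intervals of the lowest (2.43% to 7.28%) and the highest (4.90% to 11.02%) library overlapped.

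**Figure D1:**
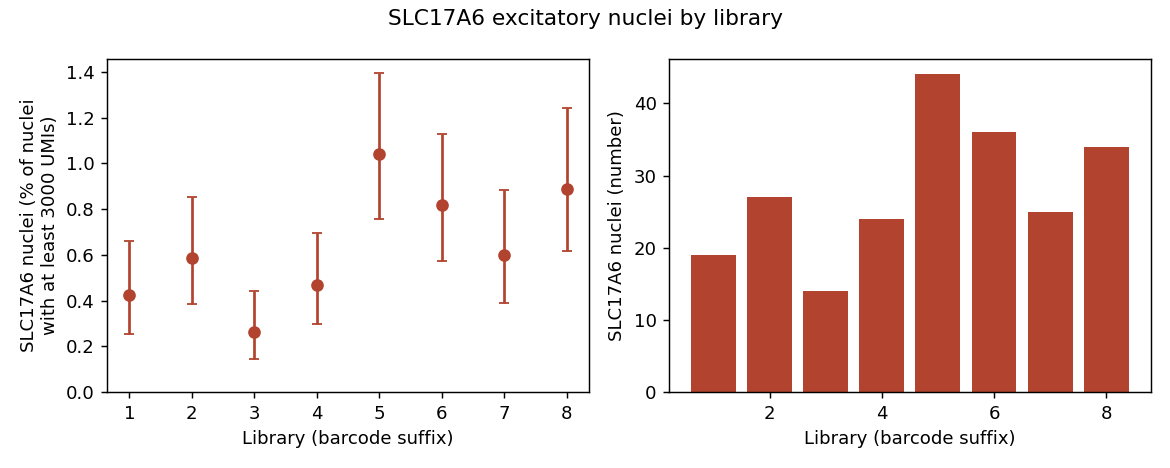
SLC17A6 nuclei in each library, on the left as a percentage of nuclei with at least 3000 UMIs with exact 95% binomial intervals, on the right as a number. Libraries 3 and 5 hold the lowest and highest shares, 0.264% and 1.04%.

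Most SLC17A6 nuclei sat at the threshold. SLC17A6 stood at exactly 2 UMIs in 185 of them, at 3 in 30 and at 4 or more in 8, with 8 UMIs as the highest value. Of nuclei with at least 3000 UMIs, 2137 had any SLC17A6 UMI and 326 had at least 2. From those 326 the rule removed 37 for GAD1 or GAD2, 36 for PROX1 and 30 for FOXP2. Just below the depth limit, 8 nuclei of 2000 to under 3000 UMIs met every other criterion, and 4 of the 223 nuclei had under 4000 UMIs. SLC17A7 was absent from 109 SLC17A6 nuclei, stood at 1 UMI in 73 and at 2 or more in 41. FOXP2 was at 0 in 197, at 1 in 19 and at 2 in 7.

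The label of excitatory neuron was checked with SV2B and TBR1, which the rule did not use. SV2B, a synaptic vesicle protein of glutamatergic neurons in the forebrain, was at 413 CPM (UMIs of a gene per 1000000 UMIs) in SLC17A6 nuclei, 496 CPM in SLC17A7-only nuclei, 56.1 CPM in inhibitory nuclei (at least 2 UMIs of GAD1 plus GAD2) and 32.2 CPM in oligodendrocytes chosen by their own genes. With every nucleus thinned to 3000 UMIs, 59.6% of SLC17A6 nuclei kept an SV2B UMI (exact 95% interval 52.9% to 66.1%), against 9.07% of oligodendrocytes, which should lack it (7.70% to 10.6%). Unthinned, those shares were 87.4% at a median of 10750 UMIs and 12.4% at a median of 3946 UMIs.

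TBR1, a transcription factor of glutamatergic cortical and amygdalar neurons, was at 25.8 CPM in SLC17A6 nuclei, 18.8 CPM in SLC17A7-only nuclei, 3.37 CPM in inhibitory nuclei and 3.41 CPM in oligodendrocytes. Thinned, it was seen in 6.28% of SLC17A6 nuclei (3.47% to 10.3%) and in 1.09% of oligodendrocytes (0.634% to 1.73%), and unthinned in 21.1% and 1.47%. In the pooled SLC17A6 nuclei both genes thus stood above their level in nuclei that should lack them. For TBR1 this was not seen in every sub-cluster, some of which held too few TBR1 UMIs to judge, as given below. SLC17A6 itself, the gene of the rule, was at 186 CPM in SLC17A6 nuclei, 2.90 CPM in inhibitory nuclei and 1.63 CPM in oligodendrocytes.

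Marker panels of other cell types gave the rest of the description. The summed level of 5 inhibitory markers was 194 CPM in SLC17A6 nuclei (86.5 to 295 CPM across libraries) and 267 CPM in SLC17A7-only nuclei (160 to 309 CPM), with DLX6 at 0. Astrocyte markers summed to 314 CPM (187 to 698 CPM) in SLC17A6 nuclei against 331 CPM (279 to 390 CPM), and oligodendrocyte markers to 94.2 CPM (19.0 to 255 CPM) against 151 CPM (76.2 to 326 CPM). The microglial sum was 50.5 CPM (15.2 to 104 CPM) against 55.1 CPM (37.9 to 81.2 CPM). No sum of these panels was higher in SLC17A6 nuclei.

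Thalamic markers added up to 14.6 CPM over 7 genes in SLC17A6 nuclei and 13.1 CPM in SLC17A7-only nuclei, and GBX2 and ZIC1, transcription factors of thalamic neurons, were at 0 in SLC17A6 nuclei. Of the Cajal-Retzius panel LHX1 and LHX5 were at 0, and only RELN and TP73 reached 10 CPM. OTP and TFAP2D of the amygdala panel were at 0 too, as were OTP, NKX2-1, FEZF1 and NR5A1 of the hypothalamic panel. The Cajal-Retzius sum was 69.2 CPM in SLC17A6 nuclei (19.7 to 182 CPM) against 31.7 CPM (21.3 to 38.1 CPM), and the hypothalamic sum 117 CPM against 138 CPM. The remaining panels were close to or below their level in SLC17A7-only nuclei, with 257 CPM in SLC17A6 nuclei against 369 CPM for granule neurons, 211 against 302 CPM for ependymal cells, 65.4 against 82.2 CPM for endothelial cells and 29.2 against 37.3 CPM for oligodendrocyte precursors. Immature neurons (204 against 205 CPM), mossy cells (34.8 against 35.8 CPM), mural cells or fibroblasts (15.7 against 14.4 CPM) and cycling cells (4.86 against 6.20 CPM) differed little, as did general neuronal markers (24831 against 25937 CPM). An absent marker allows up to 3 UMIs over the 2674692 UMIs of the 223 nuclei.

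The main comparison set SLC17A6 nuclei against SLC17A7-only nuclei, which had at least 3000 UMIs, at least 2 of SLC17A7, none of SLC17A6 and none of GAD1 or GAD2. There were 3477 of these, and both groups had nearly the same depth (median 10750 UMIs in SLC17A6 nuclei and 10747 UMIs in SLC17A7-only nuclei). Each group's UMIs were pooled and scaled to CPM. Genes with at least 10 CPM in one of the groups counted as measured, and those of them that differed at least 2-fold were called.

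SLC17A6 nuclei carried more RNA of the upper-layer cortical transcription factors CUX2 and CUX1, of the AMPA receptor subunit GRIA4 and of a set of synaptic adhesion genes. They carried less of ZBTB20, FEZF2 and BCL11B, transcription regulators of hippocampal and deep-layer neurons, and of the mineralocorticoid receptor NR3C2. Of 9159 genes measured, 137 were higher in SLC17A6 nuclei (1.5% of those measured) and 163 were lower (1.78%), or 3.28% in all. The genes of the rule are left out of these counts. Numbers of called genes in the lists below stand beside this overall share of 3.28%. The median log2 ratio of all measured genes was -0.01. In addition, a call was required to point the same way in all 8 libraries, a condition chosen after seeing the data because no library had 50 nuclei in both groups, as the first plan asked. It left 62 higher genes (0.677%) and 120 lower ones (1.31%). Library values did not overlap at all for 39 of the higher genes (0.426%) and 65 of the lower ones (0.71%).

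Among 42 measured transcription factors of forebrain regions and layers, 7 were higher in SLC17A6 nuclei and 4 were lower, with a median log2 ratio of -0.00. CUX2, a homeobox factor of upper-layer cortical neurons, was between 433 and 680 CPM (median 550.0) in SLC17A6 nuclei of the 8 libraries and between 71.9 and 240.1 CPM (median 174) in SLC17A7-only nuclei. Every library's SLC17A6 nuclei were thus above every library's SLC17A7-only nuclei. Pooled, CUX2 was at 557 CPM in SLC17A6 nuclei and 178 CPM in SLC17A7-only nuclei, a ratio of 3.14 (2.97 to 3.32; log2 1.65).

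Its paralogue CUX1 had 373 to 491 CPM per library in SLC17A6 nuclei and 150 to 236 CPM in SLC17A7-only nuclei, and did not overlap either (log2 1.05). MEF2C, a factor that responds to neuronal activity, reached 717, 1073 and 1957 CPM (lowest, median, highest library) in SLC17A6 nuclei against 379, 404 and 645 CPM (log2 1.32). TSHZ2, a zinc-finger factor, was at 271 CPM in SLC17A6 nuclei and 122 CPM in SLC17A7-only nuclei (log2 1.15), but libraries overlapped, with 101 to 495 CPM against 41.1 to 181 CPM. The other higher members were RARB, a retinoic acid receptor, and ZFHX4 and MEIS1, whose direction held in 7, 5 and 5 of 8 libraries. MEIS1 rested on 29 UMIs in 16 nuclei.

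ZBTB20, which in mice is needed for hippocampal pyramidal identity, had 193 to 546 CPM (median 301) in SLC17A6 nuclei and 1082 to 2015 CPM (median 1395) in SLC17A7-only nuclei. The libraries did not overlap, and pooled levels of 356 and 1418 CPM gave a log2 ratio of -1.995 (ratio interval 0.235 to 0.267). FEZF2, a specifier of deep-layer projection neurons, was at 5.61 CPM in SLC17A6 nuclei and 28.3 CPM in SLC17A7-only nuclei (log2 -2.33, 15 UMIs in the SLC17A6 nuclei). BCL11B, a partner of FEZF2 in such neurons, was at 53.8 and 137 CPM in the same order (log2 -1.35), and TLE4, a corepressor of corticothalamic neurons, at 35.5 and 91.4 CPM (log2 -1.36). FEZF2 and BCL11B did not overlap between libraries, while TLE4 did.

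RORB, a nuclear receptor of thalamus-recipient cortical neurons, depended on the make-up of the SLC17A7-only nuclei. It stood at 108 CPM in SLC17A6 nuclei and 72.7 CPM in SLC17A7-only nuclei (log2 0.57, not called, higher in 4 of 8 libraries). Of the SLC17A7-only nuclei, 634 had PROX1 or at least 3 FOXP2 UMIs, which the rule keeps out of SLC17A6 nuclei. Without them 2843 SLC17A7-only nuclei remained, with 37.9 CPM of RORB, and the log2 ratio was 1.51. In the same nuclei TLE4 (log2 -0.91), CNTNAP4 (-0.68), RCAN2 (0.998) and SERPINE2 (0.99) were no longer called. In that narrower comparison 176 genes were higher (1.92% of 9158 measured) and 171 were lower (1.87%).

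Summed marker panels of cortical layers and regions were compared as well. The upper-layer panel (7 genes, CUX2 and RORB among them) came to 1034 CPM in SLC17A6 nuclei, with 762 to 1343 CPM across libraries, and to 472 CPM in SLC17A7-only nuclei, with 412 to 579 CPM. Its largest member was CUX2, with 557 CPM in SLC17A6 nuclei and 178 CPM in SLC17A7-only nuclei. Beside CUX2 the upper-layer panel held SERPINE2 (56.1 CPM in SLC17A6 nuclei, 27.7 CPM in SLC17A7-only nuclei, log2 1.02, in 6 of 8 libraries) and RASGRF2 (247 and 136 CPM, log2 0.86), while CALB1 was not higher (12.3 and 16.9 CPM) and LAMP5 did not reach the minimum. The deep-layer panel (9 genes) came to 565 CPM in SLC17A6 nuclei (206 to 896 CPM) and to 1803 CPM in SLC17A7-only nuclei (1265 to 2104 CPM). Neither sum overlapped between the groups. In inhibitory nuclei the upper-layer panel came to 1096.5 CPM and the deep-layer panel to 450.8 CPM. A high upper-layer sum was thus not particular to excitatory nuclei.

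Most of the deep-layer sum was HS3ST4, a heparan sulfate sulfotransferase, with 420 CPM in SLC17A6 nuclei and 1360 CPM in SLC17A7-only nuclei (log2 -1.70). Its libraries ran from 104 to 715 CPM in SLC17A6 nuclei and from 881 to 1689 CPM in SLC17A7-only nuclei. The CA-field panel differed less, with 2276 CPM in SLC17A6 nuclei and 2450 CPM in SLC17A7-only nuclei, although FIBCD1, a chitin-binding receptor found in CA1 neurons of mice, was at 4.49 CPM against 28.1 CPM (log2 -2.65). The subicular panel came to 516 CPM against 457 CPM and the amygdala panel to 293 CPM against 325 CPM, both with overlapping libraries.

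**Figure D2:**
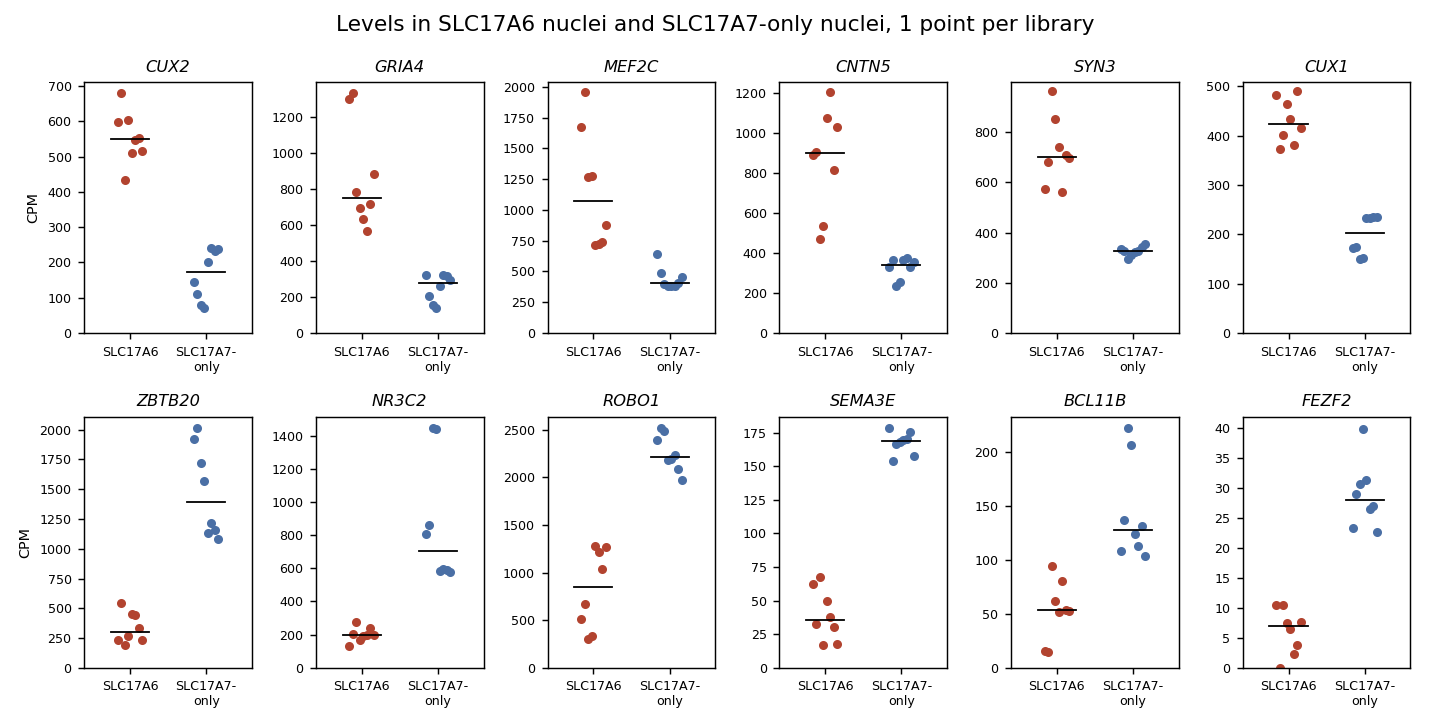
Levels of 12 genes in CPM, 1 point per library, with SLC17A6 nuclei on the left and SLC17A7-only nuclei on the right of each panel; black lines are medians over the 8 libraries, and each panel has its own axis from 0. The upper row holds genes higher in SLC17A6 nuclei and the lower row genes lower in them, such as ZBTB20 at 193 to 546 CPM against 1082 to 2015 CPM.

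Of the 17 measured genes of glutamatergic identity, CBLN4 was higher and NEUROD6 and NEUROD2 were lower (median log2 ratio -0.09). NEUROD6 and NEUROD2 encode basic helix-loop-helix factors of cortical glutamatergic neurons, and their levels were low: 4.49 CPM of NEUROD6 in SLC17A6 nuclei against 17.5 CPM in SLC17A7-only nuclei, and 6.36 CPM of NEUROD2 against 15.6 CPM. CBLN4, a secreted cerebellin that organises synapses, was at 26.9 CPM against 10.3 CPM and was higher in all 8 libraries, though the library values overlapped.

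Among ionotropic glutamate receptor subunits, 1 of 17 was called higher and 1 lower. GRIA4, which encodes the AMPA receptor subunit GluA4, had 567, 749 and 1334 CPM (lowest, median, highest library) in SLC17A6 nuclei against 138, 279 and 325 CPM in SLC17A7-only nuclei. No library of one group reached the other, and the pooled ratio was 3.14 (824 and 263 CPM, interval 3.00 to 3.29). GRIA1, the subunit GluA1, pointed the other way in all 8 libraries, with 794 to 1334 CPM in SLC17A6 nuclei and 1850 to 3182 CPM in SLC17A7-only nuclei, just under the 2-fold limit (log2 -0.99). GRIA2 and GRIA3 stayed close to even (log2 -0.06 and -0.19).

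GRIK1, a kainate receptor subunit, was lower (118 CPM in SLC17A6 nuclei, 284 CPM in SLC17A7-only nuclei, log2 -1.27). Its libraries overlapped (65.6 to 271 CPM against 220 to 433 CPM), and 1 nucleus held 15.6% of its UMIs in SLC17A6 nuclei. GRIK4, a high-affinity kainate subunit, was at 242 and 455 CPM in the same order (log2 -0.91, not overlapping). With the narrower SLC17A7-only nuclei, GRIA1 and GRIK4 passed 2-fold (log2 -1.09 and -1.03). NMDA receptor subunits differed little, with GRIN2A at log2 0.26, GRIN2B at -0.14 and GRIN1 at 0.09. GRIA4 is also abundant in inhibitory nuclei (1101 CPM), as is MEF2C (988 CPM). In inhibitory nuclei without SLC17A6 or SLC17A7 UMIs, other genes called higher stood on either side of their level in SLC17A6 nuclei. RELN (780 CPM), SGCZ (2425 CPM), CNTN5 (1159 CPM) and GABRD (43.8 CPM) were above it. CUX2 (221 CPM), RGS6 (408 CPM) and FSTL4 (73.5 CPM) were below it. The inhibitory sum given above was mostly ADARB2 (179.5 CPM in SLC17A6 nuclei), and both groups were chosen to lack GAD1 and GAD2. Whether inhibitory RNA contributes to the differences in GRIA4, MEF2C or other genes called higher was not tested.

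**Figure D3:**
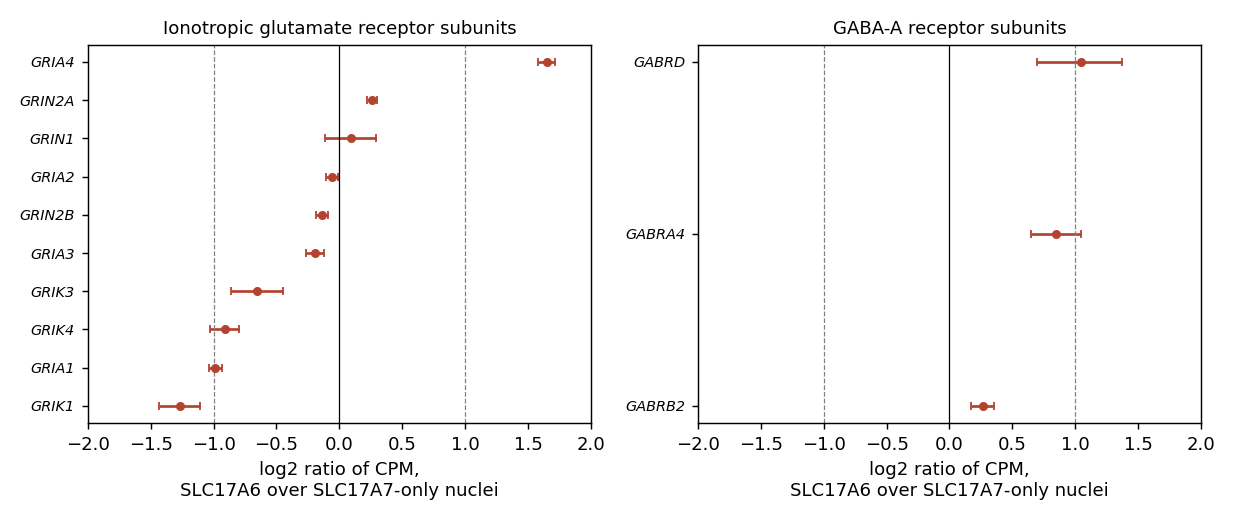
log2 ratio of CPM in SLC17A6 nuclei over SLC17A7-only nuclei for the subunits of ionotropic glutamate receptors (left, 10 genes) and GABA-A receptors (right, 3 genes) described here, with 95% counting intervals; dashed lines mark 2-fold. GRIA4 lies at 1.65, GRIA1 at -0.99 and GRIK1 at -1.27, and GABRD is the GABA-A subunit beyond the line.

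GABA-A receptor subunits had 1 of 12 called, GABRD, the delta subunit of extrasynaptic receptors. GABRD was at 22.1 to 41.8 CPM in SLC17A6 nuclei of the libraries and at 9.78 to 21.5 CPM in SLC17A7-only nuclei, without overlap (31.4 and 15.2 CPM pooled, log2 1.04). GABRA4, an alpha subunit that often pairs with delta, followed at 88.2 and 49.0 CPM (log2 0.85, higher in all 8 libraries). GABRB2, a beta subunit, was at log2 0.26. None of the 8 measured metabotropic glutamate and GABA-B receptor genes differed 2-fold, and their log2 ratios lay between 0.01 (GRM3) and 0.54 (GRM4).

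Ion channels were mostly alike, as were measured genes as a whole, of which 3.28% were called. None of 27 sodium and calcium channel genes was called (log2 -0.59 for CACNB1 to 0.83 for CACNB4), and 3 of 36 potassium and HCN channel genes were. KCNH4, a voltage-gated potassium channel of the EAG-related family, was higher at 36.3 CPM in SLC17A6 nuclei against 15.2 CPM (log2 1.26, libraries overlapping). KCNAB1, a beta subunit of Kv channels, was lower at 203 CPM against 491 CPM (log2 -1.27), and KCNN2, a small-conductance calcium-activated channel, at 170 CPM against 397 CPM (log2 -1.22), neither overlapping between libraries. KCNIP4, a calcium sensor that binds Kv4 channels, was at 8193 to 10518 CPM in SLC17A6 nuclei and 3669 to 6100 CPM in SLC17A7-only nuclei, just under 2-fold (log2 0.96).

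Adhesion and synapse-organising genes had 8 members higher and 1 lower of 59 measured and a median log2 ratio of 0.17 beside -0.01 for all measured genes. CNTN5, a contactin of the immunoglobulin superfamily, had 469, 900 and 1207 CPM per library (lowest, median, highest) in SLC17A6 nuclei against 235, 342 and 376 CPM in SLC17A7-only nuclei (log2 1.44). FSTL4, a secreted follistatin-like protein, was at 463 and 170 CPM pooled (log2 1.44). CNTNAP5, a contactin-associated protein, was at 1307 and 583 CPM (log2 1.17), and its libraries overlapped while those of CNTN5 and FSTL4 did not.

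LRRTM3 and LRRTM4, postsynaptic partners of neurexins, were higher with log2 ratios of 1.03 and 1.07, and the cadherins CDH13 and CDH22 with 1.15 and 1.28, all in 8 of 8 libraries and without overlap. CDH23 was also called, but held in 5 of 8 libraries, had 35.3% of its UMIs in 1 nucleus and stood at log2 -0.15 without library 6. CNTNAP4 was the lower member, at 22.8 CPM in SLC17A6 nuclei and 47.3 CPM in SLC17A7-only nuclei, with 32.8% of its UMIs in 1 nucleus.

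In the axon guidance list 2 of 45 genes were higher and 3 lower (median log2 ratio -0.04). SEMA3E, a secreted semaphorin, had 17.2 to 67.8 CPM in SLC17A6 nuclei of the libraries and 154 to 179 CPM in SLC17A7-only nuclei (36.3 and 168 CPM pooled, log2 -2.21). ROBO1, a receptor for SLIT ligands, had 302 to 1282 CPM against 1972 to 2524 CPM (900 and 2236 CPM pooled, log2 -1.31). SEMA5B was lower as well (24.3 against 60.9 CPM), and none of the lower members overlapped. EPHA3, an ephrin-A receptor, and SEMA6D, a transmembrane semaphorin, were higher, at 356 against 160 CPM (log2 1.16) and at 127 against 60.2 CPM (log2 1.08). The libraries of EPHA3 overlapped and those of SEMA6D did not.

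Of 37 vesicle release genes SYN3 was higher and CADPS2 and DOC2B were lower. SYN3, a synapsin, had 562 to 964 CPM in SLC17A6 nuclei of the libraries and 293 to 353 CPM in SLC17A7-only nuclei (log2 1.13). CADPS2, which primes dense-core vesicles, was at 196 and 468 CPM (log2 -1.26), and DOC2B, a calcium sensor of release, at 10.1 and 24.2 CPM from 27 UMIs in SLC17A6 nuclei. Libraries overlapped in both CADPS2 and DOC2B.

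Receptors for hormones and neuromodulators gave 2 higher and 1 lower of 20. NR3C2, the mineralocorticoid receptor, had 130 to 276 CPM (median 200) in SLC17A6 nuclei of the libraries and 575 to 1447 CPM (median 702) in SLC17A7-only nuclei, without overlap, and pooled levels of 198 and 805 CPM (log2 -2.02). The glucocorticoid receptor gene NR3C1 stood the other way, at 175 and 110 CPM, under 2-fold (log2 0.67). CRHR1, a receptor of corticotropin-releasing hormone, was at 69.9 CPM in SLC17A6 nuclei and 29.97 CPM in SLC17A7-only nuclei (log2 1.22), and ESR1, the oestrogen receptor alpha, at 49.4 and 22.7 CPM (log2 1.12). Libraries overlapped in both CRHR1 and ESR1, and ESR1 was higher in 7 of 8 libraries.

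The remaining lists held few calls. RELN, which encodes the extracellular protein reelin, was the single call among 11 neuropeptides and secreted factors, at 49.4 CPM in SLC17A6 nuclei and 14.4 CPM in SLC17A7-only nuclei, in 41 nuclei and with 5.21 to 135 CPM across libraries against 7.77 to 21.4 CPM. RCAN2, a calcineurin regulator (log2 1.02), was higher and HPCA, the calcium sensor hippocalcin (log2 -1.22), was lower among 11 calcium-binding genes. HPCA overlapped between libraries and RCAN2 did not. No gene was called among 12 neurotrophin and growth factor receptor genes or among 5 immediate early genes.

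Outside the lists, the called genes of highest level were RGS6, a regulator of G-protein signalling (1036 CPM in SLC17A6 nuclei, 352 CPM in SLC17A7-only nuclei, log2 1.56), and SGCZ, a sarcoglycan (1317 and 644 CPM, log2 1.03), on the higher side. On the lower side they were RYR3, a calcium release channel (767 and 1746 CPM, log2 -1.19), and PRKCA, protein kinase C alpha (706 and 1651 CPM, log2 -1.23). All 4 kept their direction in 8 of 8 libraries, and of them only RGS6 overlapped between libraries. Calls near 2-fold can hang on 1 library. Leaving out 1 library ended the call of CUX1 (library 4), TSHZ2 and ESR1 (library 5), HPCA (library 3), LRRTM3 (2 or 3), RARB (2 or 3), LRRTM4 and SGCZ (2 or 4), GABRD (2 or 8), RCAN2 (2, 3 or 4) and ZFHX4 (2, 3, 4 or 5). Their log2 ratios then lay between 0.84 and 0.99 in the higher genes and at -0.996 in HPCA. SERPINE2 lost its call without any of 5 libraries (lowest log2 0.91) and CNTNAP4 without any of 6 (-0.84). TMEM132C was at 0.92 without library 6. FBLN2 (without library 5), MEIS1 (without 3 or 6) and CDH23 (without 6) were under 10 CPM in both groups and so lost their call. These were 17 of the 66 called genes that stand in a list or panel or were named by rule.

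The genes of largest fold had few UMIs. NPFFR2, a receptor for neuropeptide FF, was at 3.74 CPM in SLC17A6 nuclei (10 UMIs) and 54.4 CPM in SLC17A7-only nuclei (log2 -3.86, ratio interval 0.0329 to 0.127), and its libraries did not overlap. ANXA4, POPDC3, FIBCD1, LMO1, ERG, HOMER3 and FEZF2 followed, with log2 ratios from -3.16 to -2.33. On the higher side FBLN2, SPON2, SH3RF2, COL4A4, KCNJ2, RELN, TMEM132C and PIK3C2G had log2 ratios from 1.87 to 1.72, and their libraries all overlapped with those of SLC17A7-only nuclei. Of the TMEM132C UMIs, 46.9% came from 1 nucleus.

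Because SLC17A7-only nuclei had to carry SLC17A7 and SLC17A6 nuclei did not, the 41 SLC17A6 nuclei with at least 2 SLC17A7 UMIs were set against the narrower SLC17A7-only nuclei, as a check added after seeing the data. CUX2 was at 519 and 185 CPM (log2 1.49), GRIA4 at 521 and 269 CPM (log2 0.95), and MEF2C at 932 and 399 CPM (log2 1.22). ZBTB20 was at 472 and 1473 CPM (log2 -1.64), NR3C2 at 220 and 873 CPM (log2 -1.99) and HS3ST4 at 534 and 1259 CPM (log2 -1.24). The GRIA4 difference was thus smaller and under 2-fold when both groups carried SLC17A7. The named genes CNTNAP4 and SPON2 changed sign in this check, with log2 ratios of 0.16 and -0.12.

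Libraries 1 to 4 and libraries 5 to 8 were also compared separately, since they differ in depth. All 50 named genes had the same direction in both sets. In libraries 1 to 4 the log2 ratio was 2.53 for CUX2, 2.26 for GRIA4, -2.45 for ZBTB20 and -2.38 for ROBO1. In libraries 5 to 8 it was 1.22, 1.21, -1.63 and -0.80 for the same genes, so ROBO1 stayed under 2-fold there. Of the 50 named genes, 6 in libraries 1 to 4 and 14 in libraries 5 to 8 were not called.

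Around the threshold of the rule the levels did not rise or fall steadily with the number of SLC17A6 UMIs. In the 1128 nuclei that met the other criteria with exactly 1 SLC17A6 UMI, CUX2 was at 489 CPM, GRIA4 at 771 CPM, HS3ST4 at 560.0 CPM and ZBTB20 at 503 CPM. In the 185 nuclei with exactly 2 these levels were 585, 866, 394 and 350.0 CPM. The 30 nuclei with 3 UMIs had CUX2 at 472 CPM, GRIA4 at 706 CPM, HS3ST4 at 588 CPM and ZBTB20 at 436 CPM. In the 8 nuclei with 4 or more the same genes were at 360, 480, 360 and 217 CPM. CUX2 and GRIA4 were thus highest at exactly 2 UMIs. Nuclei with 1 UMI, which the rule leaves out, were thus nearer to SLC17A6 nuclei than to SLC17A7-only nuclei in these 4 genes. The 227 of them that also had at least 2 SLC17A7 UMIs held 488 CPM of CUX2, 595 CPM of GRIA4 and 288 CPM of NR3C2.

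**Figure D4:**
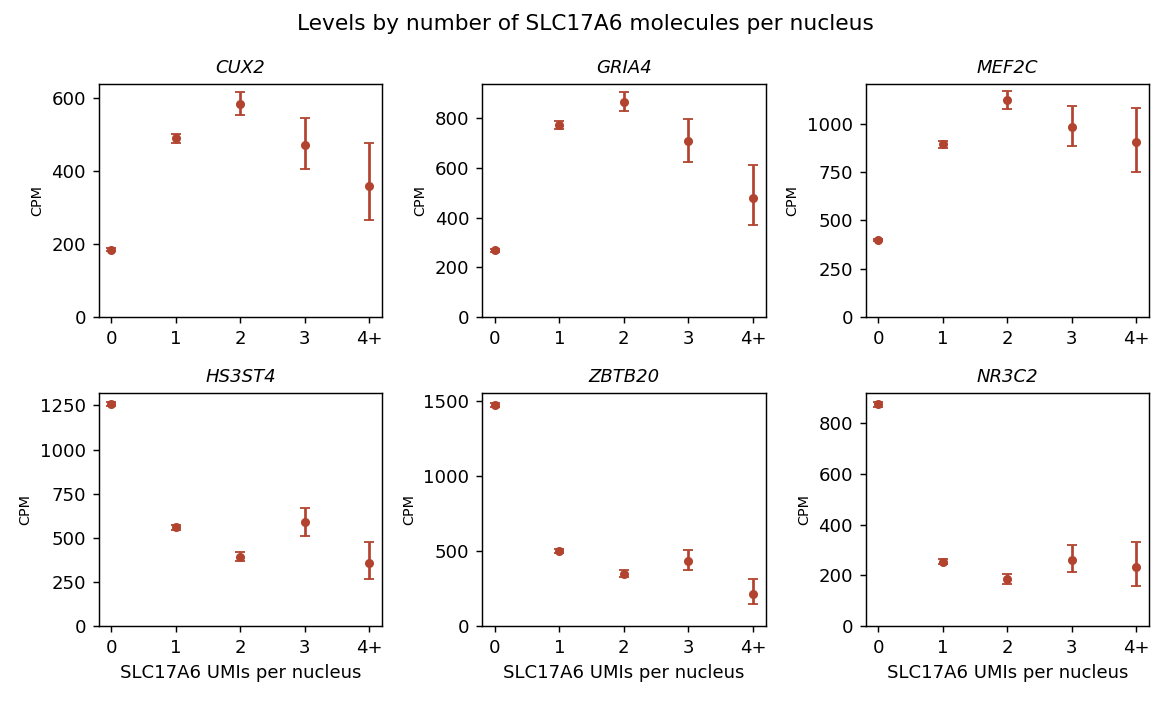
Levels of 6 genes in CPM by the number of SLC17A6 UMIs per nucleus, with 95% Poisson intervals of the summed counts; nuclei with 0 are SLC17A7-only nuclei without PROX1 and with FOXP2 under 3 UMIs, the others met the rest of the rule. CUX2, GRIA4 and MEF2C are lowest at 0, while HS3ST4, ZBTB20 and NR3C2 are highest at 0.

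A further 30 nuclei met the rule in all but FOXP2, with 3 or more FOXP2 UMIs. SLC17A6 nuclei had more of EPHA6 and CHST9 than these FOXP2-high nuclei and less of RORB and DPP10. At 10 CPM, 776 of 9405 genes were higher in SLC17A6 nuclei (8.25%) and 614 were lower (6.53%), together 14.8%. With so few nuclei many of these rest on single UMIs, and at a minimum of 100 CPM, chosen after seeing the data, 68 and 75 of 2329 genes differed 2-fold.

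RORB had 15.2, 90.8 and 268 CPM (lowest, median, highest library) in SLC17A6 nuclei against 130, 796 and 1280 CPM in FOXP2-high nuclei, and was 7.47-fold higher in FOXP2-high nuclei when pooled (interval 6.31 to 8.83). The 7 SLC17A6 nuclei with 2 FOXP2 UMIs already had 494 CPM of RORB, against 98.6 CPM in the 197 with none. DPP10, a Kv4 channel partner, was at 1835 and 6403 CPM, CNTNAP4 at 22.8 and 115 CPM, and LMO3, a LIM-only regulator, at 82.6 and 285 CPM. The kainate subunits differed in opposite directions: GRIK3 was at 74.4 CPM in SLC17A6 nuclei and 219 CPM in FOXP2-high nuclei, while GRIK1 was at 118 and 40.3 CPM.

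EPHA6, an ephrin-A receptor, was at 2220 CPM in SLC17A6 nuclei and 712 CPM in FOXP2-high nuclei (ratio interval 2.75 to 3.56). Its libraries overlapped (1100 to 3119 CPM against 58.2 to 1975 CPM), and 1 nucleus held 25.1% of the EPHA6 UMIs of FOXP2-high nuclei. CHST9, a sulfotransferase, had 359 UMIs in SLC17A6 nuclei and none in FOXP2-high nuclei. Its ratio was 15.5 with 3 UMIs over the group taken as the floor, and the exact 95% interval of the ratio begins at 12.6. SLC12A3 and FBN2 had 1 UMI each in FOXP2-high nuclei, against 174 and 130 in SLC17A6 nuclei. LHX2, a LIM homeobox factor, had 158 UMIs in SLC17A6 nuclei against 2, the serotonin receptor gene HTR7 had 167 against 3, and BDNF, brain-derived neurotrophic factor, had 165 against 3.

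Within SLC17A6 nuclei, the 41 with at least 2 SLC17A7 UMIs were compared with the 109 without any. The groups differed in depth, with a median of 15956 UMIs with SLC17A7 and of 9457 UMIs without it. At 10 CPM 351 of 9206 genes were higher with SLC17A7 (3.81%) and 385 lower (4.18%), together 7.99%. At 100 CPM only 4 and 4 of 2268 genes differed 2-fold, and most have no place in the naming rule but are named here after their values were seen. Higher with SLC17A7 were ST8SIA5 (153 CPM with, 72.3 CPM without), TRPS1 (596 and 282 CPM), NDST4 (150 and 44.8 CPM) and ARHGAP42 (110 and 54.0 CPM). In NDST4, 1 nucleus held 43.2% of the UMIs with SLC17A7 and 1 held 68.5% without.

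Lower with SLC17A7 were TRPM3, a cation channel (88.1 CPM with, 306 CPM without), MAML3, a Notch coactivator (86.6 and 192 CPM), KCNH5, an EAG potassium channel (40.9 and 117 CPM), and RORB (50.4 and 119 CPM). TRPM3, MAML3 and ST8SIA5 kept their direction in all 8 libraries, and the libraries of all these genes overlapped. The sub-clusters described below were unevenly divided between nuclei with and without SLC17A7. In sub-cluster 7, where TRPM3 was at 1975 CPM against 161 CPM in other SLC17A6 nuclei, none of 11 nuclei had 2 SLC17A7 UMIs. Of sub-cluster 1, highest in RORB, 8 of 82 nuclei had them, and of sub-cluster 2, with ARHGAP42 as a leading gene, 11 of 43. What this contributes to the differences was not tested. CUX2 was at 519 CPM with SLC17A7 and 546 CPM without, SV2B at 442 and 406 CPM, and TBR1 at 20.5 and 29.1 CPM, so these stayed under 2-fold. The larger values among low genes, such as ADCYAP1 with 4 UMIs against 37 and MEIS1 with 2 against 23, have wide ratio intervals (0.0530 to 0.570 and 0.0188 to 0.667).

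SLC17A6 nuclei were not uniform. Clustering them without the listed genes gave 7 sub-clusters at a resolution of 0.5, described here by number and leading genes without a test. The genes that lead a sub-cluster also formed it, apart from the listed ones. The division depended on the resolution: the adjusted Rand index with it was 0.684 at 0.3 and 0.48 at 1.0, where 1 would mean the same division. Sub-cluster 1 (82 nuclei, all 8 libraries) had PIK3C2G (121 CPM, against 7.37 CPM in the other SLC17A6 nuclei) and ARHGAP10 (619 against 66.9 CPM) among its leading genes. It had the highest GRIA4 (1409 CPM), MEF2C (1514 CPM) and RORB (209 CPM) of the 7, and CUX2 at 842 CPM. SERPINE2 was at 107 CPM there and RASGRF2 at 337 CPM.

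Sub-cluster 2 (43 nuclei) had ARHGAP42 (294 against 24.8 CPM) and IL1RAPL2 (920 against 100.1 CPM) among its leading genes, and the most CNTN5 (1821 CPM) and RELN (134 CPM), with TSHZ2 at 631 CPM. Sub-cluster 3 (39 nuclei) was led by GFRA1, a co-receptor of glial-derived neurotrophic factor, and ALDH1A1, which makes retinoic acid, and had the most ETV1 (298 CPM) and TLE4 (123 CPM). Sub-cluster 5 (15 nuclei) had CUX2 at 897 CPM and CNTN5 at 1698 CPM. Sub-clusters 6 (14 nuclei) and 7 (11 nuclei) had TSHZ2 at 732 and 875 CPM. ABI3BP and SNTG2 were among the leading genes of sub-cluster 6, and DKK2 and TRPM3 among those of sub-cluster 7.

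Sub-cluster 4 (19 nuclei) went against the pooled profile in each of the genes given next. It had ZBTB20 at 2207 CPM, HS3ST4 at 1304 CPM and NR3C2 at 740 CPM, with CUX2 at 83.6 CPM, GRIA4 at 71.1 CPM and MEF2C at 217 CPM, levels that lie nearer to SLC17A7-only nuclei. Other sub-clusters departed from it in some genes. Sub-cluster 7 had GRIA4 at 160 CPM and CNTN5 at 132 CPM, below SLC17A7-only nuclei (263 and 333 CPM). Sub-cluster 6 had MEF2C at 134 CPM, against 437 CPM in SLC17A7-only nuclei. GRIA4 was at 398 and 352 CPM in sub-clusters 2 and 3, and at 1409, 1056 and 1133 CPM in sub-clusters 1, 5 and 6. SV2B was at 212 to 499 CPM in all 7 sub-clusters, whereas TBR1 ran to 60.5 CPM in sub-cluster 3 and had no UMI in the 11 nuclei of sub-cluster 7. In sub-clusters 4 and 5 TBR1 was at 4.18 and 5.31 CPM, close to its level in inhibitory nuclei and oligodendrocytes. These levels rest on very few UMIs in few nuclei. TBR1 therefore neither marked sub-clusters 4, 5 and 7 nor could be called absent from them. SLC17A6, the gene of the rule, was at 192 CPM in sub-cluster 4 and at 165 to 286 CPM across the 7 sub-clusters.

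Libraries were unevenly spread over the sub-clusters. Sub-clusters 2, 5, 6 and 7 had no nucleus from libraries 1 to 4, sub-cluster 4 had 2 nuclei from them and 17 from libraries 5 to 8, and sub-cluster 3 had 32 and 7. Sub-cluster 1 had 50 and 32. Depth, tissue portion and treatment could not be told apart for these libraries. A sub-cluster from a single set of libraries may therefore be a property of those libraries.

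**Figure D5:**
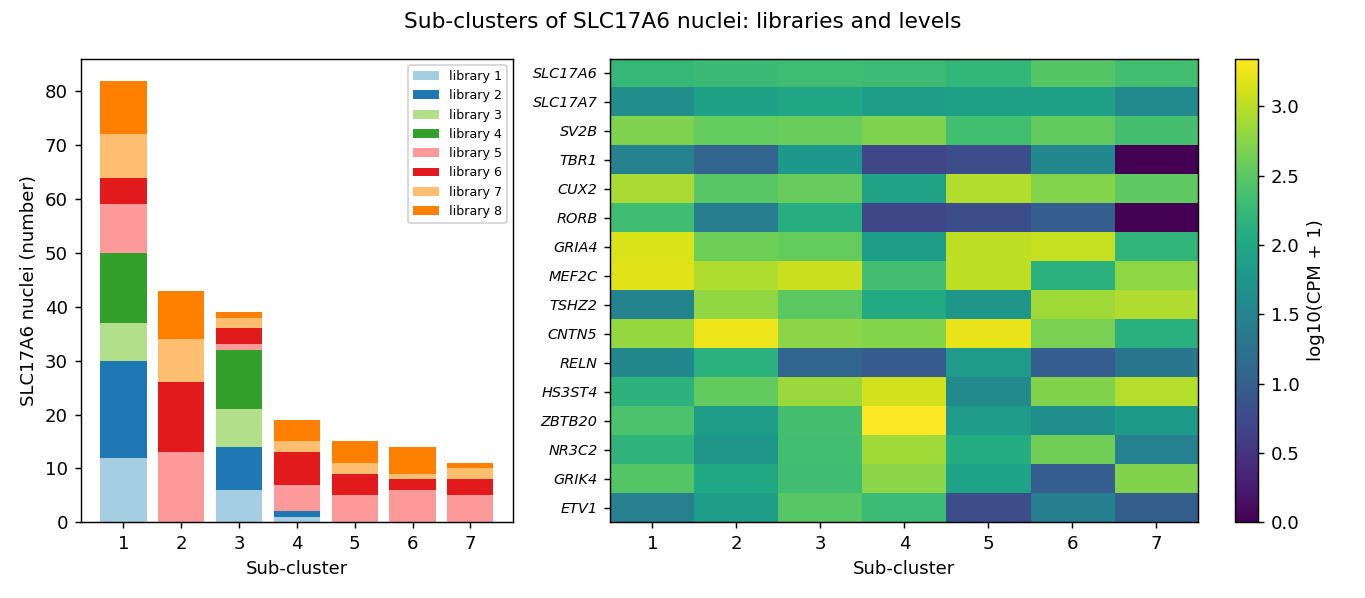
Left, number of SLC17A6 nuclei in each sub-cluster by library; right, level of 16 genes in each sub-cluster as log10(CPM + 1), including the rule genes SLC17A6 and SLC17A7. Sub-clusters 2, 5, 6 and 7 hold nuclei of libraries 5 to 8 only, and sub-cluster 4 has high ZBTB20 (2207 CPM) with low CUX2 (83.6 CPM).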

How the data were processed

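The authors deposited raw UMI counts (whole numbers, no scaling) as 1 matrix of 21748 genes and 59749 barcodes over 8 libraries. The software version is Cell Ranger 3.1.0 per the file headers, and the submitters' processing notes also name CASAVA 1.8 and Seurat. No coordinates or sequences are printed, because the genome build was not stated in what was used here. Barcodes and gene symbols were read as the authors deposited them, and the other columns hold no measurement.

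UMI counts were summed per group over all libraries and divided by the group's total (CPM). Ratios have exact conditional binomial 95% intervals, CPM Poisson and shares Clopper-Pearson intervals, all for counting error only. A gene was measured at 10 CPM in either group and called at 2-fold. No group, test or p-value was assigned to a library. The members, the 15 gene lists (487 of 492 genes in the matrix) and the 22 marker lists were chosen with earlier results of these data known. For naming, each list gave at most 2 called genes a direction by fold, and all genes gave 8 by fold and 4 by CPM a direction (1 and 5 by fold in the smaller comparisons); other list members and markers are named as values. PROX1-negative and FOXP2-low SLC17A7-only nuclei were the narrower contrast.

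Sub-clusters used log(1 + counts per 10000), 2000 variable genes without the listed ones, 20 components, 20 neighbours and Leiden at resolution 0.5 (scanpy 1.11.5). Doublets were scored within libraries and kept, and removing them was an alternative (17 SLC17A6 and 200 SLC17A7-only nuclei marked). The calling steps were tested on simulated data with counting error only. That simulation held no variation between nuclei or libraries, so it cannot show how calls behave under such variation. Python 3.11.15 and scipy 1.17.1 were used.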

Additional observations from a re-analysis of the deposited data

Results flagged for a closer look

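A single library stood apart from the other 7 in 5 of 103 sets of library values examined, by the gap to its nearest neighbour over the whole range; chance alone flags about 1 in 20 sets. The median depth of SLC17A6 nuclei was 16953.5 UMIs in library 4, against a median of 10822.5 UMIs over the libraries. ANXA4 was at 10.4 CPM in SLC17A6 nuclei of library 1, against a library median of 1.18 CPM. In SLC17A7-only nuclei, MEF2C was at 645 CPM in library 1 (median 404 CPM), SH3RF2 at 9.35 CPM in library 1 (median 4.34 CPM) and NEUROD2 at 21.9 CPM in library 4 (median 16.2 CPM). Their causes were not tested.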

How the results depend on the processing

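No paired analysis was possible because no column carries a replicate number and the barcode suffixes are not tied to samples. Against SLC17A7-only nuclei (137 genes higher, 163 lower), the counts were 1175 and 781 with no CPM minimum, and 107 lower at 20 CPM. They were 323 and 429 with at least 3 SLC17A6 UMIs (38 nuclei), 91 and 90 with at least 1, and, chosen after seeing the data, 361 and 455 in libraries 1 to 4 only, 269 and 365 with SLC17A7 in both groups, and 62 higher with all 8 libraries required. Leaving out a library gave 125 to 162 higher and 149 to 201 lower. SH3RF2 changed sign with at least 3 SLC17A6 UMIs (log2 -1.21), and CNTNAP4 (0.16) and SPON2 (-0.12) with SLC17A7 in both groups. The other genes of the 50 named by rule kept their direction under every alternative run for this comparison. Their calls changed more often, for 16 of 50 with at least 1 SLC17A6 UMI, 14 in libraries 5 to 8 only, 12 with SLC17A7 in both groups, 12 with all 8 libraries required, 11 with at least 3 SLC17A6 UMIs, 9 at 20 CPM and at most 6 under each other alternative. CDH23, a list member outside these 50, stood at log2 -0.15 without library 6.

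Against FOXP2-high nuclei (776 higher, 614 lower), 1697 were lower with no minimum, 418 and 340 at 20 CPM, 68 and 75 at 100 CPM, and 1271 and 1033 after UMI matching, with 783 to 845 and 581 to 838 when a library was left out. Between SLC17A6 nuclei with and without SLC17A7 (351 higher, 385 lower), the counts were 674 and 626 with libraries weighted equally, 890 and 959 with no minimum, 148 and 148 at 20 CPM, 4 and 4 at 100 CPM, and 856 and 616 after UMI matching, with 348 to 472 and 428 to 543 when a library was left out. Here CDH23 ranged from log2 -1.93 to 0.54, the positive value without library 6. The 30 FOXP2-high nuclei and the 41 with SLC17A7 limit the precision of both.

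The share of SLC17A6 nuclei was 0.849% at 5000 UMIs or more, 0.4995% at 2000 or more, 0.105% with at least 3 SLC17A6 UMIs and 0.119% after thinning to 3000 UMIs (43 nuclei), and 0.561% to 0.678% without 1 library. At resolution 1.0 there were 12 sub-clusters (adjusted Rand index with the 7 described 0.48). Where a cause is not named, the cause was not tested.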
